A study of Mus musculus with 2 samples.

Results

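Mast cell or basophil nuclei were picked out of 2 single-nucleus libraries of mouse fetal lung by the genes detected in each nucleus. A nucleus counted as a member where at least 3 of 12 gate genes had a unique molecular identifier (UMI, a tag that counts 1 captured RNA molecule) and at most 1 of 8 excluded genes had one. The gate genes were Hdc, Cyp11a1, Tpsb2, Cpa3, Cma1, Gata2, Rab44, Mcpt4, Slc18a2, Ms4a2, Mcpt8 and Kit. The excluded genes were Ikzf3 and Icos, carried by group 2 innate lymphoid cells (ILC2s), the alveolar epithelial genes Slc34a2, Lamp3, Rtkn2 and Clic5, and the mesenchymal genes Col1a2 and Tcf21. The rule found 235 members among 9818 nuclei with at least 200 genes and at most 60% mitochondrial UMIs, 77 of 4572 in the PBS library and 158 of 5246 in the OVA library.

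The study asked how asthma of the mother affects the fetal lung. Wild type females, 6 to 8 weeks old, were sensitized with 100 µg ovalbumin (OVA) in 25 µL alum or with alum alone, mated with untreated males, and given 500 µg OVA or PBS into the nose between gestation days 4 and 17. Both groups of dams had therefore received alum. Lungs of 8 fetuses (OVA) and 9 fetuses (PBS), from 1 dam per group, were pooled on gestation day 18 and sorted before nuclei were made, into an EpCAM+ epithelial fraction, a CD45+ immune fraction and an ILC2 fraction that was CD45+, Lin- and ST2+. Nuclei of all sorted fractions were together in a library, so a share of nuclei also carries the proportions of the sort. With 1 library per group there was no test between groups, and litter, sort and treatment cannot be told apart. All intervals below are 95% intervals that cover counting error only.

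Mast cells and basophils are granulocytes that carry the high-affinity IgE receptor and release histamine, proteases and lipid mediators when it is cross-linked. Mast cells mature in tissues under the growth factor that binds Kit and store chymases, tryptases and carboxypeptidase A3 with heparin in their granules. Basophils circulate and express other granule proteases, Mcpt8 and Prss34, and both lineages need the transcription factor Gata2.

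Each nucleus had also been measured for open chromatin, a readout that the rule did not use. The DNA before the starts of 4 gate genes is printed here because the chromatin values below turn on these loci. They were the gate genes with the highest accessibility in members over other nuclei within 2 kb among those in the promoter table (RefSeq, GRCm38.p6; 10 of the 12 gate genes were in it). Each run holds 250 bases, 5′ to 3′ on the strand of the gene. Capitals mark a GATA motif (AGATAA or TGATAA, either strand) or an E-box (CACGTG or CATGTG, either strand). Cyp11a1 has 2 annotated starts, and both are shown.
Mcpt8, chr14:56085198-56085447, minus strand: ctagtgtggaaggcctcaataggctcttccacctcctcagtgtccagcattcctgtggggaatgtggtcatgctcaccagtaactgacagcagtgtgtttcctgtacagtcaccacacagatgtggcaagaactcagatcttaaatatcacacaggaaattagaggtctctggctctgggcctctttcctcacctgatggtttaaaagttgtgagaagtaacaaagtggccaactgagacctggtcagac
Cyp11a1 first start, chr9:57997774-57998023, plus strand: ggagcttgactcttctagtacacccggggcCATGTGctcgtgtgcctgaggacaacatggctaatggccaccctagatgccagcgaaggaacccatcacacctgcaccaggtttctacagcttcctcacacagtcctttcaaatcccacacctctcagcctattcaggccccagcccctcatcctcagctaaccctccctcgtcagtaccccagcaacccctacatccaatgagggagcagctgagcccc
Cyp11a1 second start, chr9:58014702-58014951, plus strand: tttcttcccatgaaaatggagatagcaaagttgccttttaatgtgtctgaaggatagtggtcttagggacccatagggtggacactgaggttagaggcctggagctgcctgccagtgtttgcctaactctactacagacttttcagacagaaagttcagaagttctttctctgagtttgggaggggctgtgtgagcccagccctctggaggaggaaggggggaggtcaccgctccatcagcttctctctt
Cpa3, chr3:20242182-20242431, minus strand: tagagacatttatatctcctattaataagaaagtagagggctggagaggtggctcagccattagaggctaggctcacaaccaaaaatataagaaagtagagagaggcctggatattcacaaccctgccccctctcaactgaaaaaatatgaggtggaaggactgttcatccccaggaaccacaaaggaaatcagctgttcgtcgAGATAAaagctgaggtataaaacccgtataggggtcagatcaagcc
Hdc, chr2:126618679-126618928, minus strand: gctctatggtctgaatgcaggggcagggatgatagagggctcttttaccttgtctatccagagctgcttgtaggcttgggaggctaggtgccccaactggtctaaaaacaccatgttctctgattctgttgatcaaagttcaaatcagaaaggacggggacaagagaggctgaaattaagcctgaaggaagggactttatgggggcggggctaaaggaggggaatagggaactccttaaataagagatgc
The Cpa3 window held 1 GATA motif and the first Cyp11a1 window 1 E-box. Among the 10 gate genes in the table, 4 had a GATA motif so defined (Cpa3, Mcpt4, Ms4a2 and Slc18a2) and 1 had an E-box so defined. Counted per promoter and not per gene, 16.6% and 17.6% of 32851 promoters of the same length held them. Other forms of both motifs were not searched and are not marked. A match is a string of letters, not a bound site.

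In the PBS library members were 1.68% of nuclei (1.33 to 2.10, exact Clopper-Pearson), and in the OVA library they were 3.01% (2.57 to 3.51). The OVA share was higher by 1.33 percentage points (0.718 to 1.94). The OVA library was deeper, with a median of 1879 gene UMIs per nucleus against 1170. After every nucleus was thinned to 500 UMIs of nuclear genes, with 1452 PBS and 525 OVA nuclei too shallow to enter, the shares were 1.25% of 3120 and 2.29% of 4721, and the difference was 1.04 points (0.427 to 1.63). At a mitochondrial limit of 20% the difference was 0.683 points with an interval that held 0 (-1.03 to 1.87), and under the study's own limits on UMIs and peak counts it was 0.783 (0.00182 to 1.52). No member barcode was shared between libraries, against 32 shared barcodes among all kept nuclei.

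Members carried a median of 5 gate genes and at most 10 in each library. Of the PBS members 20 were just inside with exactly 3 gate genes, and of the OVA members 38. A further 86 PBS and 166 OVA nuclei missed by 1 gate gene, and 42 and 78 had enough gate genes but more than 1 excluded gene. Members had a median of 1300 gene UMIs (PBS) and 1607.5 (OVA), with mitochondrial shares of 41.3% and 31.2%, and in all 132604 and 396071 gene UMIs. One OVA member held 42384 of these, 10.7% of the OVA sum, and 228 UMIs of endothelial marker genes. Several RNA ratios between libraries are also given without it below.

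The gate genes describe how the members were chosen and were not tested. Levels are CPM, the UMIs of a gene per 1000000 gene UMIs of all nuclei in a class. Hdc, which makes histamine from histidine, had 253 UMIs in 62 of 77 PBS members (1908 CPM) and 1047 in 131 of 158 OVA members (2643 CPM). In the other nuclei it stood at 32.3 and 61.2 CPM, and in barcodes with under 200 genes, which the filter left out, at 90.2 and 324 CPM. Hdc was thus the most widely detected gate transcript, and traces of it were in nuclei and barcodes outside the gate in both libraries. Slc18a2, which loads amines into granules, was at 317 and 341 CPM in 27 and 80 members, against 9.01 and 8.78 CPM in other nuclei.

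The granule protease RNAs were spread less evenly over nuclei. Tpsb2, a tryptase, had 203 UMIs in 40 PBS members (1531 CPM) and 418 in 83 OVA members (1055 CPM). Cpa3, carboxypeptidase A3, had 1320 and 1093 CPM in 54 and 101 members. Cma1, a chymase, had 777 and 704 CPM in 37 and 79 members. Tryptase and chymase RNA was thus not detected in many members at this depth. Mcpt4, the connective tissue chymase, was concentrated further, with 50 UMIs in 11 PBS members, 25 of them in 1 nucleus, and 57 UMIs in 18 OVA members, 15 of them in 1 nucleus. Mcpt8 had 14 UMIs in 4 PBS members and 14 in 7 OVA members. These proteases are close paralogs, and reads of Tpsb2 and Tpsab1 or of neighbouring Mcpt genes may have been divided between them or dropped in counting.

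Kit, the stem cell factor receptor, was at 784 and 1012 CPM in members but also at 535 and 848 CPM in ILC2-gated nuclei, defined here by at least 3 of 6 ILC2 marker genes (275 PBS and 467 OVA nuclei). Gata2 was at 339 and 406 CPM against 8.27 and 10.3 CPM in other nuclei. Cyp11a1, the enzyme that opens steroid synthesis from cholesterol, was at 475 and 414 CPM in 35 and 78 members against 6.17 and 8.39 CPM in other nuclei. Rab44, a large Rab GTPase, was at 430 and 485 CPM. The IgE receptor itself was barely seen: Ms4a2, its beta chain, had 3 and 13 UMIs, and Fcer1a, its alpha chain and no gate gene, had 0 and 1. Its shared gamma chain Fcer1g had 24 and 58 UMIs (181 and 146 CPM against 43.7 and 36.6 CPM in other nuclei).

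**Figure D1:**
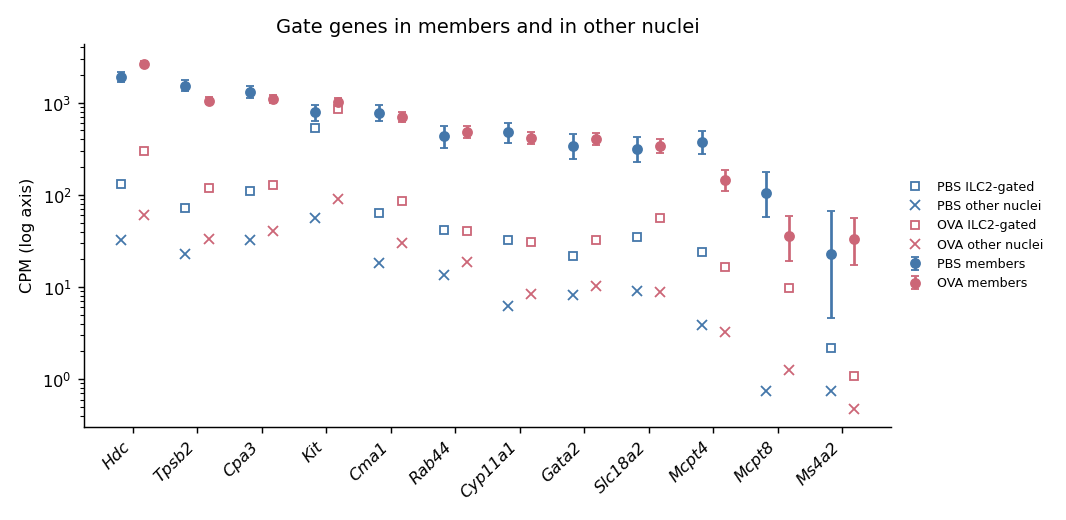
Levels of the 12 gate genes in CPM on a log axis, with circles for members and exact Poisson intervals, squares for ILC2-gated nuclei and crosses for other nuclei, PBS in blue and OVA in red; a level of 0 is not drawn. Every gate gene lies higher in members than in other nuclei, as the rule requires, and Kit is the one whose ILC2-gated level comes near that of members (535 against 784 CPM in PBS).

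Accessibility offered a view that the RNA gate did not use. Counts of transposition events in peaks within 10 kb of the 12 gate gene starts were divided by all peak counts of the same nuclei. This is given as peak CPM, counts per 1000000 peak counts. Members had 471 peak CPM in PBS (647 counts) and 529 in OVA (1104 counts). Other nuclei had 128 and 124, ILC2-gated nuclei 209 and 189, and macrophage-gated nuclei, defined by at least 3 of 8 macrophage genes, 115 and 78.1. Chromatin at the gate loci was thus more open in members, by log2 1.88 (1.76 to 2.00) in PBS and 2.10 (2.00 to 2.19) in OVA.

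The value followed the number of gate genes with RNA. Nuclei without a gate gene had 108 peak CPM in PBS and 107 in OVA, and nuclei with 1 had 132 and 114. Nuclei just outside, with 2 gate genes, had 221 (194 to 252) and 147 (129 to 168), and nuclei just inside, with 3, had 331 (279 to 391) and 332 (280 to 392). With 5 or 6 gate genes the value was 711 in PBS and 548 in OVA, and with 7 or more it was 455 and 624, so the OVA values mounted at each step and the PBS values dropped back at the last one. Nuclei with at least 3 gate genes but over 1 excluded gene, which the rule left out, had 235 and 262.

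**Figure D2:**
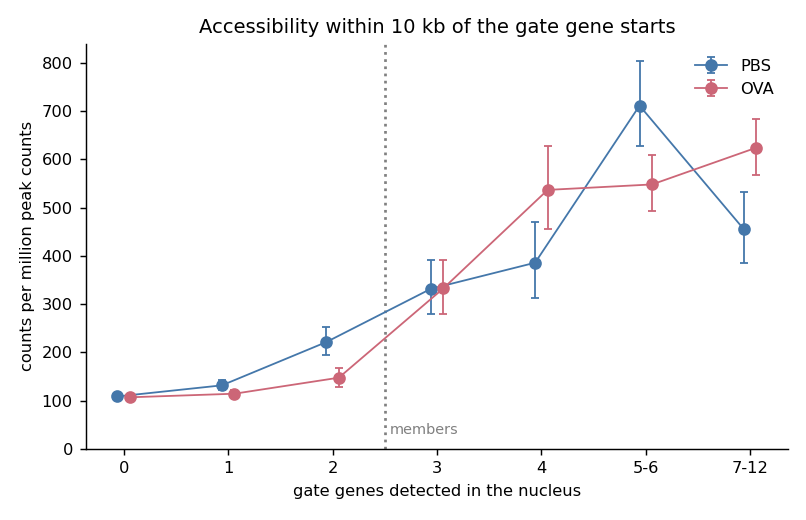
Peak counts within 10 kb of the gate gene starts, in peak CPM (vertical axis, from 0), against the number of gate genes detected in the nucleus, for nuclei that passed the excluded genes, with exact Poisson intervals and a dotted line at the gate. Both libraries lie between 107 and 132 with 0 or 1 gate gene and at 331 to 332 with 3.

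Single loci differed widely. Peaks near Mcpt8 were more open in members by log2 5.28 (4.38 to 6.19) in PBS and 4.82 (4.21 to 5.44) in OVA, from 26 and 54 counts, although Mcpt8 RNA was in few members. Peaks near Mcpt4 were more open by 4.48 and 5.13, from 12 and 39 counts. Near Hdc the values were 3.25 (2.83 to 3.65) and 3.26 (2.90 to 3.62), near Cyp11a1 3.27 and 2.87, near Cpa3 2.73 and 3.06, near Cma1 2.81 and 2.62, near Slc18a2 2.13 and 2.63 and near Tpsb2 2.15 and 3.02. The protease and histamine loci thus stood above Rab44 (1.15 and 1.92), Gata2 (1.08 and 1.17) and Kit (1.41 and 1.27), whose peaks were also open in many other nuclei. Ms4a2 and Fcer1a had no peak within 10 kb in either library. Mcpt4 and Mcpt8 are neighbours on chromosome 14, but the counts of the single gate genes added up to the 647 and 1104 of all of them. No peak within 10 kb was thus counted for more than 1 gate gene.

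At the promoter windows, a peak lay over the second Cyp11a1 start in both libraries, with 42 PBS and 53 OVA member counts and log2 4.31 (3.71 to 4.90) and 3.92 (3.39 to 4.45) over other nuclei. The peak over the Hdc window had 14 and 25 member counts and log2 1.96 and 2.51. The Slc18a2 window, not printed here, which held a GATA motif, had a peak with 20 and 31 counts and log2 1.85 and 1.91. The first Cyp11a1 window had a peak in PBS alone, with 31 counts and log2 1.03. No peak was called over the Cpa3 and Mcpt8 windows in either library, so the counts near these genes came from other peaks.

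Across the genome 102993 peak pairs overlapped between the libraries, and 15756 of them had at least 20 member counts in each. Of these, 1435 (9.11%) were at least 2-fold more open in members in both libraries. Of the 12 pairs nearest to a gate gene start, 9 were among them, at 6 gate genes. Of the 6 peaks with the highest smaller ratio, none lay nearest to a gate gene. The leading one, chr16:54041763-54042673 in the OVA peak set (mm10), lay between genes, 1213 kb from the nearest start, with log2 6.85 in PBS and 6.01 in OVA. The next was chr7:110077996-110078791 in introns of 1600010M07Rik and Zfp143 (5.17 and 5.25). The third, chr19:32653710-32654379, lay in an intron of Papss2, 33.7 kb from its start (5.13 and 5.13), and Papss2 makes the sulfate donor used for heparin. The others were chr14:9828431-9829313 in an intron of Fhit (5.06 and 5.01), chr12:15986117-15987117 in an intron of Gm36235 (5.70 and 4.97) and chr8:92534471-92535405 between genes (5.16 and 4.92). Besides the peak over the Hdc window, chr2:126627211-126628139 had Hdc as its nearest start at 8.53 kb, in an exon of Gabpb1, with 26 and 54 member counts and log2 5.21 and 4.75.

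Genes outside the gate were then compared between members and other nuclei of the same library. Since members were chosen on RNA, these levels describe the gate and are given without a test. Of 2664 nuclear genes with at least 30 member UMIs, 195 (7.32%) were at least 2-fold higher in members in both libraries with intervals above 0. Against ILC2-gated nuclei the count was 117 (4.39%), and against macrophage-gated nuclei it was 236 (8.86%). The 12 genes with the highest lower bound were Mcpt1, Slc6a4, Atp8a2, Tdrd5, Pla2g7, Clnk, Gnaz, Prkcb, Tpsab1, Grik2, Lat2 and Il1rl1.

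Of these, Slc6a4 is on the list of amine handling and Lat2 on that of IgE receptor signalling. Slc6a4, the serotonin transporter, had 16 UMIs in 12 PBS members (121 CPM) and 62 in 33 OVA members (157 CPM), against 3.58 and 6.35 CPM in other nuclei. Lat2, an adaptor of the IgE receptor, was at 166 and 134 CPM against 9.63 and 11.1. Clnk, a mast cell adaptor related to Slp76, was at 166 and 227 CPM against 6.05 and 12.9. ILC2-gated nuclei had 52.0 and 120 CPM of Clnk, so OVA members stood above them by log2 0.92 only. Prkcb, a protein kinase C, was detected in 35 PBS and 86 OVA members at 475 and 543 CPM. Pla2g7, which breaks down platelet-activating factor, was at 204 and 202 CPM against 5.93 and 11.1. Atp8a2, a phospholipid flippase, was at 189 and 288 CPM against 7.16 and 6.74. Il1rl1, which encodes the IL-33 receptor ST2, was at 837 and 831 CPM in members, against 63.0 and 86.2 in other nuclei, and close to the 639 and 857 CPM of ILC2-gated nuclei. Chromatin near Il1rl1 was more open in members by log2 2.26 (1.88 to 2.62) and 2.08 (1.76 to 2.39). ST2 was also the marker by which ILC2s had been sorted.

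Gene lists of mast cell and basophil function were read by counts of genes with at least 10 UMIs in members, a filter that genes high in members pass more easily, so the counts describe the lists and support nothing. As background, 279 of 5974 nuclear genes outside the gate (4.67%) were at least 2-fold higher in members than in other nuclei in both libraries, and 118 (1.98%) were lower. Of 9 granule proteases outside the gate 7 passed the filter and 5 were higher (Mcpt1, Mcpt2, Prss34, Tpsab1 and Tpsg1), and Ctsg had no UMI. Of 6 basophil genes 5 passed and 5 were higher (Grm6, Il4, Itga2, Cd200r3 and Prss34). Of 5 amine handling genes 4 passed and 3 were higher (Tph1 and Ddc, which make serotonin, and Slc6a4), and Hnmt, which inactivates histamine, had no UMI. Of 4 mucosal mast cell genes 3 passed and 3 were higher (Mcpt1, Mcpt2 and Itgb7), but Mcpt1 and Mcpt2 came from few nuclei, as given below.

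Signalling and mediator lists held a smaller part of higher genes. For IgE receptor signalling 14 of 15 genes passed and 6 were higher (Inpp5d, Fcer1g, Lat2, Fyn, Lcp2 and Btk), and the inhibitory phosphatase Inpp5d was at 241 and 412 CPM against 61.6 and 91.5 in other nuclei. For lipid mediators 9 of 10 passed and 5 were higher (Pla2g4a, Ptgs2, Alox5ap, Hpgds and Alox5), which covers the release of arachidonic acid and the paths to prostaglandin D2 and leukotrienes. Hpgds, the haematopoietic prostaglandin D synthase, was at 83.0 and 121 CPM against 6.91 and 10.6. Ptgs2 was at 468 and 702 CPM, near its 459 and 847 CPM in ILC2-gated nuclei. For proteoglycan synthesis 13 of 14 passed and 4 were higher (Hs3st1, Srgn, Chst11 and Hs6st2), with Srgn, the core protein of granule proteoglycan, at 897 and 1010 CPM in 42 and 120 members. Of 12 exocytosis genes 10 passed and 2 were higher (Stx11 and Rab27b), with Rab27b, which docks granules, at 400 and 730 CPM.

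Receptors, cytokines and transcription factors gave a similar picture. Of 15 cytokine receptors 14 passed and 4 were higher (Il1rl1, Il7r, Csf2rb2 and Csf2rb), and of 16 mediator receptors 10 passed and 3 were higher (Adora3, Mrgprb1 and Mrgprb2). Mrgprb1 or Mrgprb2, receptors of basic secretagogues on connective tissue mast cells, had a UMI in 8 PBS and 15 OVA members. Of 18 cytokines and chemokines 13 passed and 5 were higher (Csf1, Il6, Il4, Ccl3 and Ccl4), with Il4 at 30.2 and 30.3 CPM, and Il5 had no UMI. Of 23 transcription factors 14 passed and 2 were higher (Ikzf2 and Runx3). Gata1 had 0 and 3 UMIs, and Cebpe had none. Mitf, which drives mast cell genes, was at 60.3 and 162 CPM, not above other nuclei in PBS (97.0 CPM), while its chromatin was more open in members by log2 0.70 (0.52 to 0.87) and 1.03 (0.90 to 1.16).

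Other genes of steroid synthesis had low counts or none. Of 11 genes of the steroid list 3 passed and none was higher. Star, Hsd11b2, Stard3 and Fdxr were detected with fewer than 10 UMIs, and Hsd3b1, Cyp11b1, Cyp21a1 and Cyp17a1 had no UMI in any member. Hsd11b1, which reactivates glucocorticoids, had 4 UMIs in 3 PBS members and 12 in 10 OVA members. A count of 0 allows up to 22.6 CPM in PBS members and 7.57 CPM in OVA members (3 counts). Of 18 cell cycle genes 6 passed and none was higher, and Top2a was in 4 PBS and 15 OVA members. Of 17 immediate early and stress genes 15 passed and none was higher.

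**Figure D3:**
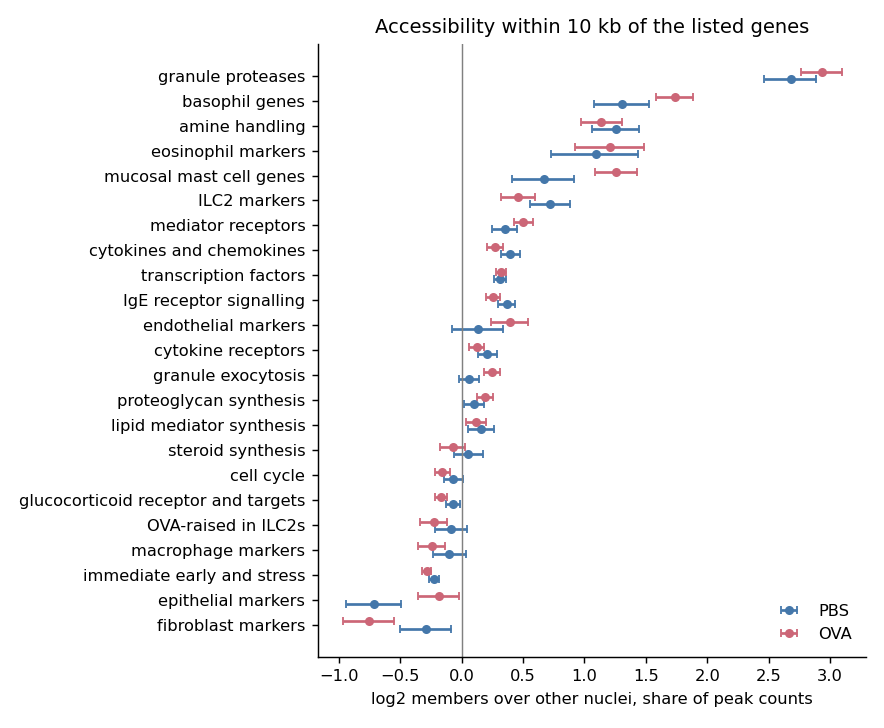
Ratio of the share of peak counts within 10 kb of the listed genes in members to that in other nuclei, on a log2 axis, with exact conditional intervals, PBS in blue and OVA in red. Granule proteases outside the gate lead with 2.68 and 2.93, and epithelial and fibroblast markers lie below 0 in both libraries.

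Chromatin near the lists was read in the same way. Around the granule proteases outside the gate it was more open in members by log2 2.68 (2.46 to 2.89) in PBS and 2.93 (2.76 to 3.09) in OVA, around the basophil genes by 1.31 and 1.73, and around the amine handling genes by 1.26 and 1.14. Several of these genes are neighbours of gate genes in the chymase and tryptase clusters. Around the immediate early genes the values were -0.22 and -0.28, and around fibroblast markers -0.29 and -0.76.

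The label names 2 cell types, so members were divided by the markers of each. Genes counted as mast cell markers were Tpsb2, Tpsab1, Cma1, Mcpt4, Mrgprb1 and Mrgprb2, and genes counted as basophil markers were Mcpt8, Prss34 and Cd200r3. A member with at least 1 mast cell marker and no basophil marker was found in 41 PBS (53.2%) and 87 OVA cases (55.1%). Basophil markers alone were found in 7 (9.09%) and 6 (3.80%), both kinds in 6 (7.79%) and 31 (19.6%), and neither in 23 (29.9%) and 34 (21.5%). Tpsb2, Cma1 and Mcpt4 of the mast cell markers and Mcpt8 of the basophil markers are gate genes, so the rule itself weighs on these shares.

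The share with both kinds was higher in OVA by 11.8 points (1.57 to 20.4). At equal depth it was 13.4 points (-0.585 to 23.1), and without Cd200r3 it was 4.33 points (-3.68 to 10.6), so the interval then held 0 in both cases. Cd200r3 was in 7 PBS (9.09%) and 26 OVA members (16.5%), and in 0.289% and 0.649% of other nuclei, whose median depths were 1167 and 1885.5 UMIs. Mcpt8 or Prss34 was in 7 and 16 members. Of those, 3 PBS and 13 OVA members also had a mast cell marker. Among members with Cd200r3, 3 in PBS and 22 in OVA also had a mast cell marker. Over all members a mast cell marker was in 47 of 77 in PBS and 118 of 158 in OVA. These counts do not set Cd200r3 apart from Mcpt8 and Prss34. No basophil marker, Cd200r3 included, is read here as specific to basophils. With doublet calls left out the difference was 13.5 points (1.93 to 22.6). The part of free RNA in this class was not tested.

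**Figure D4:**
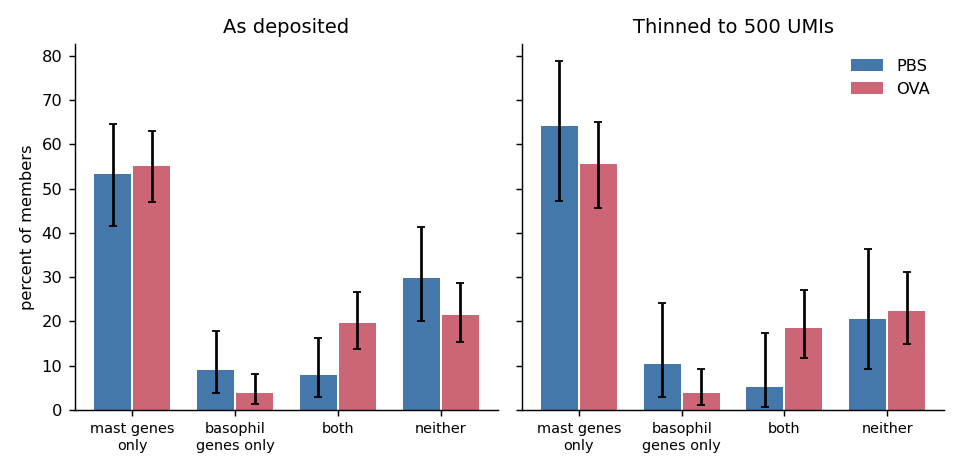
Percent of members (vertical axis, from 0) with mast cell markers only, basophil markers only, both or neither, with exact binomial intervals, as deposited (left) and after thinning to 500 nuclear-gene UMIs (right). The class with both kinds holds 7.79% of PBS and 19.6% of OVA members as deposited.

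Chromatin of these classes was compared at the mast cell marker loci (peaks within 10 kb), a measure apart from the RNA that divided them. Members with mast cell markers only had 160 peak CPM in PBS and 152 in OVA, against 17.0 and 15.9 in other nuclei. Members with basophil markers only had 321 in PBS (20 counts) and 0 in OVA (0 counts, which allows up to 80.6), so this small class had opposite values in the 2 libraries. Members with neither kind had 84.3 (60.7 to 114) in PBS and 152 (113 to 200) in OVA, well above other nuclei. Members without a marker RNA thus had open mast cell loci too.

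At the basophil marker loci, members with basophil markers only had 64.1 (17.5 to 164) and 175 (75.5 to 345) peak CPM, and those with mast cell markers only 51.5 (36.1 to 71.3) and 66.3 (53.3 to 81.6). Those with both kinds had 87.8 (42.1 to 162) and 113 (80.8 to 153), and other nuclei 10.6 and 12.7. The intervals of the classes overlapped in each library.

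A mucosal subset was searched for with Mcpt1 and Mcpt2, chymases of mucosal mast cells. Either was in 2 PBS and 6 OVA members, and both together in 0 and 2. Mcpt2 had 4 UMIs in 1 PBS member and 54 in 4 OVA members, 30 of them in 1 nucleus. Mcpt1 had 5 UMIs in 1 and 27 in 4, with 17 in 1 nucleus. The RNA of these proteases thus came from few nuclei. Gzmb, granzyme B, had 1 UMI in 1 PBS member and 51 UMIs in 11 OVA members (129 CPM against 1.96 in other OVA nuclei). Of the 11, 8 had a mast cell marker and 4 had Mcpt8. Over all 158 OVA members, 118 had a mast cell marker, a similar share, and 7 had Mcpt8.

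Other cell types were checked by whole marker lists. The eosinophil list stood at 7.54 and 7.57 CPM, against 0.494 and 0.862 in other nuclei. Epx, Prg2, Ccr3 and Il5ra were at 0 in both libraries. The T or B cell list stood at 7.54 and 12.6 CPM, and no member had 2 of its genes. The macrophage list stood at 249 and 205 CPM against 305 and 445 in other nuclei. The neutrophil or monocyte list stood at 226 and 95.9 (93.4 and 81.5 in other nuclei), and the megakaryocyte list at 204 and 164 (41.5 and 50.3). ILC2-gated nuclei had more of the megakaryocyte list, 286 and 413 CPM. Its genes Gp9, Gp1bb, Vwf and Ppbp had no UMI in members of either library. Other lists were lower in members than in other nuclei. The erythroid list stood at 22.6 and 101 CPM (270 and 364 in other nuclei) and the progenitor list at 468 and 550 (883 and 919). The epithelial list stood at 686 and 619 CPM (4526 and 3022). RNA of the eosinophil list and of the T or B cell list was thus nearly absent. Chromatin within 10 kb of the eosinophil markers was nevertheless more open in members than in other nuclei. The log2 ratio was 1.09 (0.73 to 1.44) in PBS and 1.21 (0.92 to 1.48) in OVA.

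The fibroblast list was higher in PBS members (852 CPM) than in OVA members (414 CPM), and stood at 1229 and 1349 CPM in other nuclei. The ILC2 list stood at 814 and 1116 CPM, against 422 and 653 in other nuclei, and 12 PBS (15.6%) and 37 OVA members (23.4%) had at least 2 of its 6 genes. Those had 417 and 539 peak CPM at the gate loci, near the 486 and 546 of members with neither ILC2 nor endothelial genes, and 270 and 266 at the ILC2 loci, where ILC2-gated nuclei had 391 and 421. The endothelial list stood at 60.3 CPM in PBS and 889 in OVA, against 167 and 183 in other nuclei, and 3 OVA nuclei held 319 of its 352 UMIs. The 5 OVA members with at least 2 endothelial genes held 19.1% of all OVA member UMIs and had 221 (139 to 335) peak CPM at the gate loci. A simulated-doublet score called 18 of 77 PBS and 20 of 158 OVA members. Among all kept nuclei it called 368 of 4572 and 294 of 5246, a smaller share in both libraries. The called members held 45.9% of all PBS member UMIs and 23.7% of all OVA member UMIs, so they weigh on the member levels. They had 356 and 327 peak CPM at the gate loci against 573 and 582 in members without a call.

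The levels of members were then set side by side between libraries as the ratio of OVA to PBS CPM. Of 1638 genes with at least 50 UMIs, 327 (20.0%) were at least 2-fold higher in OVA with an interval above 0, and 28 (1.71%) were at least 2-fold lower. The median ratio was log2 0.42 and 74.2% of genes were above 0. Mitochondrial RNA took a smaller share of OVA members, and with nuclear genes alone as the denominator every log2 ratio was lower by 0.23, the counts were 200 and 45 and the median was 0.19. Relative to the median gene they were 135 and 80.

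Single nuclei weighed on these counts. Of the 327 genes, 69 had at least 50% of their OVA UMIs in 1 nucleus, and 203 stayed past 2-fold without the largest OVA member. Over the same 1638 genes, 224 (13.7%) were higher and 24 (1.47%) lower without that member, and 329 (20.1%) higher and 14 (0.855%) lower without each gene's highest nucleus in each library. The 5 with the highest ratios, Cyyr1, Ryr2, Cldn5, Cdh5 and Ptprb, had no PBS UMI and from 51 to 70 OVA UMIs in 3 to 5 nuclei. Cdh5 and Cldn5 encode junction proteins of endothelium and Ptprb an endothelial phosphatase. With a PBS count of 0 they had no finite ratio, and the lower bounds of their intervals were log2 2.16 to 2.63. The largest OVA member alone held 61 of the 70 Cyyr1 UMIs. Without it the lower bounds were 1.11 (Ryr2), 0.53 (Cdh5), 0.06 (Ptprb), -0.25 (Cldn5) and -0.43 (Cyyr1), so 3 of the 5 stayed above 0. The 5 lowest were Adamts17 (log2 -1.63), Ednra (-1.62), Mcpt4 (-1.39), Tspan5 (-1.29) and Col1a2 (-1.28). Ednra, an endothelin receptor, and Col1a2, a collagen chain and an excluded gene of the rule, are known from mesenchymal cells. The fibroblast list was lower in OVA members in the same direction (852 and 414 CPM), and its part was not tested. Leaving out doublet calls left 7 genes lower and turned Adamts17 to 2.01 and Col1a2 to 0.51.

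Of the 10 gate genes with at least 50 UMIs none was 2-fold higher in OVA and 1, Mcpt4, was lower. The shares over all 1638 genes were 20.0% and 1.71%. Members were chosen by the gate genes, and their median depth differed (1300 gene UMIs in PBS and 1607.5 in OVA). The rule itself thus weighs on the ratios of these genes, so they describe the gate and are not set against the background. Hdc had a log2 ratio of 0.47 (0.27 to 0.67), near the 0.42 of the median gene, and 0.63 without the largest OVA member. With doublet calls left out the Hdc interval held 0 (0.11, -0.12 to 0.33). Kit had 0.37 (0.05 to 0.69), below the median gene, and stood at -0.0295 with doublet calls left out. Tpsb2 had a log2 ratio of -0.54 (-0.78 to -0.29, and -0.38 without that member). It was -0.04 under the study's own limits on UMIs and peak counts, -0.0037 without members with 2 endothelial or ILC2 genes and -1.13 without doublet calls. Cpa3 had -0.27 (-0.53 to -0.01, and -0.11 without it), with 0.35 under those limits. Intervals of Cma1, Cyp11a1, Gata2, Rab44, Slc18a2 and Ms4a2 included 0. With doublet calls left out Cyp11a1 was at -0.74 (-1.18 to -0.28) and Cma1 at -0.64 (-0.997 to -0.26). Under the study's limits Gata2 was at 0.82 (0.24 to 1.45) and Rab44 at 0.57 (0.04 to 1.13).

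Mcpt4 was at 377 CPM in PBS and 144 in OVA, a log2 ratio of -1.39 (-1.96 to -0.81), and without its highest nucleus in each library it was -0.84. Mcpt8 was at 106 and 35.3 CPM (-1.58, -2.76 to -0.40), from 14 UMIs in each library. In contrast Tpsab1 was at 30.2 CPM in 4 PBS members and 101 in 29 OVA members (1.74, 0.28 to 3.69). Without the largest OVA member Mcpt4 was at -1.23, Mcpt8 at -1.42 and Tpsab1 at 1.91. Tpsab1 is a paralog and neighbour of Tpsb2, and the identity between both was not computed. Whether reads were divided differently between both tryptases was not tested.

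**Figure D5:**
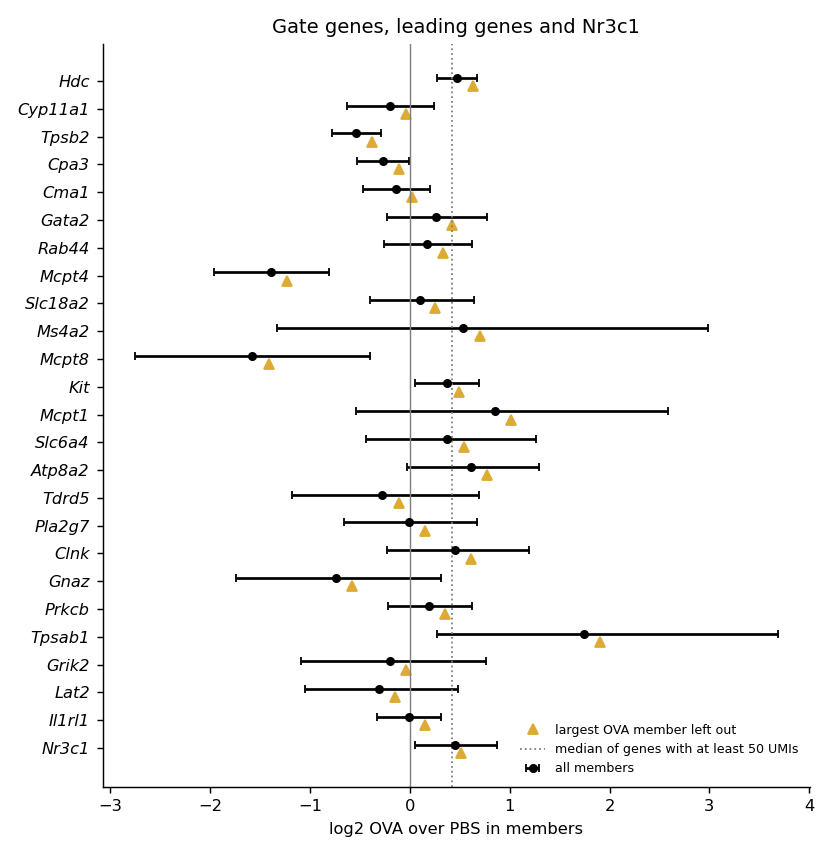
Log2 ratio of OVA to PBS CPM in members for the gate genes, the 12 leading genes outside the gate and Nr3c1, with exact conditional intervals (circles) and without the largest OVA member (triangles); the dotted line is the median gene, 0.42, among those that reached 50 UMIs. Hdc and Kit lie above 0 but near the dotted line, and Tpsb2, Mcpt4 and Mcpt8 below 0, with intervals that leave out 0. With doublet calls left out Kit stood at -0.0295 and the Hdc interval held 0. The Tpsb2 and Mcpt8 intervals held 0 under the study's limits. Members were chosen by the gate genes, so the rule weighs on their ratios.

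Chromatin near the gate genes, over peaks shared by both libraries, had 583 PBS and 1081 OVA member counts and a log2 ratio of OVA to PBS of 0.26 (0.11 to 0.41). Near Tpsb2 it was 0.82 (0.24 to 1.43), near Rab44 0.81 (0.32 to 1.32) and near Mcpt4 1.07 (0.11 to 2.14), while near Hdc it was 0.03 (-0.45 to 0.52) and near Kit -0.15 (-0.63 to 0.33). At 2 kb Tpsb2 was at 0.41 (-0.42 to 1.28) and Rab44 at 0.43 (-0.30 to 1.20), and at 50 kb Tpsb2 was at 0.14 (-0.17 to 0.45), Rab44 at 0.31 (0.10 to 0.52) and Mcpt4 at 0.71 (0.25 to 1.20). The Tpsb2 interval thus left out 0 at 10 kb alone among these distances.

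The lists were compared over 5974 nuclear genes outside the gate with at least 10 UMIs, of which 66.8% were above 0 with a median of log2 0.36. Transcription factors were above 0 for 13 of 14 genes (median 0.74), among them Runx1 (1.20, 0.66 to 1.79), Mitf (1.42, 0.36 to 2.69) and Fli1 (1.25, 0.49 to 2.11). Cytokines and chemokines were above 0 for 12 of 13 (median 0.97), with the neutrophil chemokine Cxcl2 at 3 UMIs in 3 PBS members and 49 in 24 OVA members (2.45, 0.82 to 4.78), and Osm at 9 in 9 and 71 in 38 (1.40, 0.40 to 2.59). Both lists thus stood above the background share, with no test of the difference. Without the largest OVA member Fli1 was at 0.85, Mitf at 1.58, Runx1 at 1.36, Cxcl2 at 2.61 and Osm at 1.56, and the list medians were 0.88 for transcription factors and 1.13 for cytokines and chemokines.

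Granule proteases outside the gate were above 0 for 6 of 7 (median 1.74), which Mcpt2 and Gzmb led. IgE receptor signalling was above 0 for 10 of 14 (0.22), lipid mediator synthesis for 7 of 9 (0.42), proteoglycan synthesis for 9 of 13 (0.62), exocytosis for 6 of 10 (0.65), cytokine receptors for 8 of 14 (0.10), mediator receptors for 7 of 10 (0.15), basophil genes for 4 of 5 (0.30), cell cycle genes for 5 of 6 (1.17) and amine handling genes for 1 of 4. These lay on both sides of the background. Il1rl1 was at -0.01 (-0.33 to 0.31), Srgn at 0.17 (-0.13 to 0.48) and Fcer1g at -0.31 (-1.01 to 0.45). Immediate early and stress genes were above 0 for 7 of 15 (-0.13), with Fosb at -0.51 (-0.84 to -0.17) and Egr1 at -0.48 (-0.86 to -0.10).

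Genes read as higher after OVA in ILC2s of these same samples were above 0 for 4 of 5 in members (median 1.78), with Arih1 at 1.26 (0.83 to 1.71), Mpp7 at 1.87 (1.16 to 2.68) and Homer1 at 1.90 (0.71 to 3.40). That list was chosen on these libraries and is no independent evidence. In ILC2-gated nuclei Arih1 was at 1.41, and over all other nuclei at 0.98, so the difference was not confined to members. Without the largest OVA member Arih1 was at 1.26, Mpp7 at 1.98, Homer1 at 2.02 and Picalm at 1.13 in members. Picalm, a clathrin adaptor chosen after its values were seen, showed the same spread over classes, with 766 UMIs in 118 OVA members and 120 in 47 PBS members (1.10, 0.82 to 1.39), and 0.87 in other nuclei.

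Nr3c1, the glucocorticoid receptor gene, was the gene that the study followed in ILC2s. In members it had 63 UMIs in 34 PBS nuclei, 475 CPM (365 to 608), and 257 UMIs in 90 OVA nuclei, 649 CPM (572 to 733). That is above the 192 and 292 CPM of other nuclei and below the 778 and 1807 CPM of ILC2-gated nuclei. Its log2 ratio of OVA to PBS was 0.45 (0.05 to 0.87) in members, 0.51 without the largest OVA member, 0.60 in other nuclei and 1.22 in ILC2-gated nuclei. The member value was near the median of all genes, 0.42, and was 0.03 relative to it. Peaks within 10 kb of Nr3c1 had a log2 ratio of members to other nuclei whose interval held 0 (0.08, -0.17 to 0.32, in PBS and -0.03, -0.23 to 0.17, in OVA), and OVA over PBS they were at 0.00 (-0.31 to 0.32). Within 50 kb they were more open in members by 0.77 (0.60 to 0.94) in PBS and 0.47 (0.32 to 0.61) in OVA. Of 12 genes of the glucocorticoid list 11 passed the filter, and of these only Nr3c1 was at least 2-fold higher in members than in other nuclei in both libraries, and 7 were above 0 between OVA and PBS (median 0.23).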

How the data were processed

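The authors sorted cells from pooled fetal lungs, made nuclei, built 10x multiome libraries (RNA and transposase-accessible chromatin of the same nucleus) and deposited, per library, whole-number counts: gene UMIs and transposition counts in peaks called in that library. Per the labels the counts came from Cell Ranger ARC 2.0.1 on mm10, and per the study's methods its analysis began from that tool's filtered matrix. Of 8019 PBS and 5960 OVA barcodes, nuclei were kept from 200 genes upward and up to a mitochondrial share of 60%. The whole kept libraries held 8233625 and 13150129 gene UMIs and 42313412 and 46903096 peak counts. Levels (CPM) divide the summed UMIs of a gene by all gene UMIs of the class. Intervals at 95% were exact: Poisson for levels, Clopper-Pearson for shares, and conditional binomial for ratios. Differences of shares have Newcombe's interval. All cover counting error only. No test was made, with 1 library per group. A gene was called past 2-fold where its interval also left out 0. Accessibility was the share of peak counts within 10 kb of gene starts, as the deposited feature table gives them, and peaks were shared where they overlapped by at least 1 base.

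The members and gene lists were chosen with earlier results of these data known. The rule for naming took the 12 gate genes, up to 4 genes per list with the most member UMIs, genes at 0 that define a cell type, the 12 genes outside the gate (at least 30 member UMIs) with the highest lower bound over other nuclei, the 5 highest and 5 lowest OVA over PBS ratios past 2-fold (at least 50 UMIs), Nr3c1 and the 6 leading peaks. Other genes, among them those named as higher within a list and Picalm, were named after their values were seen. Alternatives varied the gate, the excluded genes, the mitochondrial limit, the study's limits on UMIs and peak counts, doublets, depth, the denominator, the UMI minimum and the distance to gene starts. Doublets were kept as the rule has no such filter. An alternative removed nuclei with the most simulated doublets among 30 neighbours. The cut was set at 0.8% per 1000 barcodes, and nuclei tied at the cut were removed too (368 PBS and 294 OVA nuclei in all). Scripts were tested on simulated data. Python 3.11.15, NumPy 2.4.6, SciPy 1.17.1, pandas 2.3.3, scikit-learn 1.9.0 and Matplotlib 3.10.9 were used. Promoters were from RefSeq (GRCm38.p6) and positions from GENCODE M21, whose gene spans held the deposited start for 99.6% of the genes found in both.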

Additional observations from a re-analysis of the deposited data

How the results depend on the processing

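No paired analysis was possible because there is a single library of PBS and of OVA. With 1 pool of fetuses per group and no replicate, neither the share of members nor any ratio has an error between litters, and depth limits single genes to wide counting intervals. The OVA excess in the share of members (1.33 points) was 2.61 with at least 2 gate genes and 0.683 (-1.03 to 1.87) with a mitochondrial limit of 20%. Genes higher and lower in OVA members (327 and 28 of 1638, 20.0% and 1.71%) changed in number with the genes that reached the minimum. They numbered 89 and 16 of 690 (12.9% and 2.32%) with at least 5 gate genes, 69 and 8 of 499 (13.8% and 1.60%) without any excluded gene, 103 and 30 of 361 (28.5% and 8.31%) at the 20% mitochondrial limit, 170 of 1164 higher (14.6%) under the study's limits, 131 and 7 of 706 (18.6% and 0.992%) at a minimum of 100 UMIs and 104 and 11 of 644 (16.1% and 1.71%) with the OVA sum thinned to the PBS sum. Over the same 1638 genes they were 200 and 45 with nuclear-gene UMIs as the denominator and 135 and 80 relative to the median gene, a centring that itself balances the directions. Lower genes numbered 15 of 1161 with at least 4 gate genes, 56 of 2690 at a minimum of 30 UMIs, 7 of 1100 without doublet calls (26.3% were then higher) and 14 of 1638 without each gene's highest nucleus. Without the largest OVA member 197 of 1404 were higher (14.0%), and without members that had 2 endothelial or ILC2 genes 138 of 915 were higher (15.1%) and 7 lower. These last 3 settings and the class without Cd200r3 were chosen after seeing the data. Lists with a median above that of all genes were 8 of 14, and 4 of the 8 lists with enough genes at a minimum of 30 UMIs, 4 of 10 without any excluded gene, 2 of 6 at the 20% mitochondrial limit and 4 of 13 without doublet calls. Nr3c1 (0.45) was 0.94 without any excluded gene and 0.0283 relative to the median gene. Signs turned for Cpa3, to 0.35 under the study's limits and 0.16 without the mixed members, for Kit without doublet calls (-0.0295), for Adamts17 (2.01) and Col1a2 (0.51) without doublet calls, and for chromatin near endothelial markers in OVA at 50 kb (-0.0183). The log2 step in gate-locus accessibility from nuclei without a gate gene to members (2.12 in PBS, 2.31 in OVA) was 1.80 and 1.92 at 2 kb, 1.26 and 1.39 at 50 kb, 1.87 and 2.16 under the study's limits and 2.36 and 2.46 without doublet calls. Members over other nuclei (1.88 and 2.10) it was 1.61 and 1.68 at 2 kb, 1.15 and 1.31 at 50 kb, 2.04 and 2.21 with at least 4 gate genes, 2.16 and 2.20 with at least 5, and 2.22 and 2.26 without doublet calls. OVA over PBS (0.26) it was 0.0464 at 2 kb and 0.11 with at least 5 gate genes. The causes were not tested. The 5 genes without a PBS UMI gave no ratio to recompute. Of 101 recomputed main values, 52 stayed within the limits set and 49 moved. Of 401 recomputed single values, 342 stayed within them, 53 moved and 6 turned sign against a main interval that left out 0. A value that stayed within its main interval could still turn sign where that interval held 0.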

Other observations

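Among genes outside the lists, several were higher in many OVA members rather than in a few. They were chosen after their values were seen. Furin, a protease that cuts precursor proteins, had 38 UMIs in 21 PBS members and 303 in 80 OVA members, a log2 ratio of 1.42 (0.93 to 1.94) against 0.69 in other nuclei. Tax1bp1, an autophagy adaptor, had 31 UMIs in 18 and 245 in 98 members, a log2 ratio of 1.40 (0.86 to 1.99) against 0.52 in other nuclei. Dennd4a had 86 UMIs in 39 and 558 in 114 members (1.12, 0.79 to 1.46), and its ratio in other nuclei was 1.13. Without the largest OVA member Furin was at 1.57, Tax1bp1 at 1.51 and Dennd4a at 1.27. The difference between members and other nuclei was not tested for any of them.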
